A study of Mus musculus with 5 samples.

Results

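Notch receptors, their ligand Jag1 and their target genes were followed in single-cell RNA sequencing (scRNAseq) of GFP+ cells sorted from mouse hindlimb muscle before and after bone injury. The 7 genes were taken by name from the 31055 features of each count matrix, and all 7 were found and detected in each of the 5 libraries. They are 3 receptors (Notch1, Notch2 and Notch3), 1 ligand (Jag1) and 3 target genes (Hes1, Hey1 and Heyl).

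In the Notch pathway a ligand on one cell, such as Jag1, binds a receptor on its neighbour, and proteases of the ADAM family and gamma-secretase then free the intracellular part of the receptor. This fragment enters the nucleus, joins the DNA-binding protein RBPJ and turns on genes of the HES and HEY families, whose products are transcriptional repressors. Notch3 is known from the mural cells of vessels, the pericytes and vascular smooth muscle cells, while Notch1 and Notch2 are found in many cell types.

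All mice carried Prx1Cre and mTmG on a C57Bl/6 background and were young adults of either sex. Cre driven by Prx1 in the limb mesenchyme switches a membrane tdTomato to GFP for good, so that GFP marks descent from that lineage and not the present cell type. The conditions were no injury (d0), d3 and d5 after a non-stabilized tibial fracture (an osteotomy without fixation), and d3 and d5 after polytrauma, in which the muscles around the tibia were also compressed. Each condition was 1 library pooled from 2 mice, so no difference between conditions was tested, no p-value is given, and the 95% intervals below (exact Poisson for levels, exact binomial for shares and ratios) cover counting error only.

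The conditions of 2 libraries did not follow their deposited labels. The library deposited as d3 post-polytrauma was used as d5 fracture, and the one deposited as d5 post-fracture was used as d3 polytrauma. The former holds 2001 barcodes, the number of cells that the source data of the paper list for d5 post-fracture. The comparisons between libraries that turn on this exchange are followed by their main values under the deposited labels.

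Cells with 350 to 8000 genes, under 20% mitochondrial UMIs (unique molecular identifiers, each standing for 1 captured transcript) and at least 1000 UMIs were retained, which left 4632 cells at d0, 5589 at d3 fracture, 6201 at d3 polytrauma, 1468 at d5 fracture and 11941 at d5 polytrauma. Depth differed, from a median of 3640 UMIs per cell at d0 to 34949 at d5 fracture. EGFP transcripts were found in 97.3 to 99.2% of the cells. The cell barcodes of d0 and both d3 libraries came from one barcode set and those of both d5 libraries from another, so a difference between d5 and an earlier day cannot be told apart from one between these sets. Of the 1468 cells at d5 fracture, 869 had a barcode that also occurs at d5 polytrauma. Over all cells, the ratios of Hes1 and Notch3 from d3 to d5 fracture are also given without them. So are those of Notch2 and Notch3 between the injuries at d5. Levels by cell class at d5 fracture are given only with these cells. Markers of other lineages were low over whole libraries: the summed level of 6 endothelial markers was 9.26 to 50.4 CPM (UMIs scaled to the same total per library or class), that of 6 hematopoietic markers 9.91 to 78.8 CPM and that of 5 myogenic markers 0.287 to 3.72 CPM, with Pax7 at 0 in 3 libraries.

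In the GENCODE M21 annotation of GRCm38 the 7 genes lie on 5 chromosomes. Notch1 (chr2:26457903-26516663, minus strand) and Jag1 (chr2:137081456-137116644, minus) share chromosome 2, and Notch2 (chr3:98013527-98150361, plus) and Hey1 (chr3:8663359-8667256, minus) share chromosome 3. Notch3 is at chr17:32120820-32166852 (minus), Hes1 at chr16:30064384-30067796 (plus) and Heyl at chr4:123233556-123249875 (plus). The RefSeq promoter table (build GRCm38.p6) held an entry for 4 of the 7 genes, Notch1, Notch2, Notch3 and Jag1. Its starts differ from those of GENCODE. The Notch1 stretch used below and parts of the Jag1 and Notch2 stretches therefore lie inside the genes as placed above. The 250 bases before the start of Notch3 (chr17:32166891-32167140, minus strand) and of Jag1 (chr2:137116521-137116770, minus strand) are shown 5′ to 3′ because these 2 genes were both higher in pericyte-like cells in every library, as described below. Capitals mark GGGCGG or its reverse complement, the core of the GC box bound by SP1-family factors.
Notch3: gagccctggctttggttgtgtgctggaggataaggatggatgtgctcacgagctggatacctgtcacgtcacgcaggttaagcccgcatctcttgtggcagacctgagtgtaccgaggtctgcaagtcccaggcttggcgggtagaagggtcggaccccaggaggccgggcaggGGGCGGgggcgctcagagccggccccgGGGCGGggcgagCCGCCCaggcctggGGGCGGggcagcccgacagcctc
Jag1: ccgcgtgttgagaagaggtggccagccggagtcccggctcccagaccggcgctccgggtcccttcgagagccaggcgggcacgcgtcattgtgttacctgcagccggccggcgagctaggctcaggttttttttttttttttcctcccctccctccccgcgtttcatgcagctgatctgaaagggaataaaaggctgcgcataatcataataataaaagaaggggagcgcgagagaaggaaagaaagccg
The Notch3 stretch held GGGCGG 4 times on either strand, and the Jag1 stretch did not hold it. The stretches of Notch1 and Notch2 each held it 5 times. It occurred in 32.7% of 32851 promoter stretches of the same length. TGGGAA, the core letters bound by RBPJ, was searched on both strands and was in none of the 4 stretches, against 21.6% of all. A match or its lack describes these letters in this window and nothing more.

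Notch3 was the member most concentrated in one class of cells. The cells of each library were clustered without any gene of the Notch pathway, and clusters were named from marker genes. A cluster was called pericyte-like from Cspg4, Des, Mylk, Rgs5, Myh11, Kcnj8, Abcc9 and Mcam. Pericyte-like cells made up 745 of 4632 cells at d0 (16.1%), 119 at d3 fracture (2.13%), 55 at d3 polytrauma (0.887%), 38 at d5 fracture (2.59%) and 111 at d5 polytrauma (0.93%).

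In pericyte-like cells the level of Notch3 was 364 CPM at d0 (interval 343 to 385), 241 at d3 fracture (208 to 277), 198 at d3 polytrauma (157 to 246), 577 at d5 fracture (522 to 636) and 265 at d5 polytrauma (239 to 293). In all other cells it was 7.10, 0.857, 2.26, 4.40 and 4.12 CPM in the same order. The pericyte-like level was thus between 51.2-fold (d0) and 281-fold (d3 fracture) higher, and no interval of one class reached that of the other in any library. In cells thinned to 2000 UMIs each, to set depths level, Notch3 was found in 51.2% of pericyte-like cells at d0, 46.2% at d3 fracture, 37.7% at d3 polytrauma, 65.8% at d5 fracture and 48.6% at d5 polytrauma, and in 0.114 to 1.41% of the others. Hematopoietic-like cells, blood cells that are not known for Notch3, held it in 0 of 22 thinned cells at d3 fracture, 1 of 80 at d3 polytrauma and 2 of 22 at d5 polytrauma. Before thinning the median depth of these was 3870 to 6597 UMIs, against 4647 to 9931 in the pericyte-like cells of the same libraries, and Notch3 was found in 2.99 to 13.8% of all cells of a library.
Pericyte-like cells held 92.0% of all Notch3 UMIs at d0, 69.6% at d3 fracture and 63.9% at d5 fracture, but 25.9% at d3 polytrauma and 31.6% at d5 polytrauma, where they were 0.887 and 0.93% of the cells. The other cells held Notch3 at 1.95, 0.356, 1.14, 0.762 and 1.55% of the pericyte-like level in the order above. The 8 pericyte markers spanned this range: Rgs5 and Myh11 stood in the other cells below the share of Notch3 in each library (0.0435 to 1.03% and 0.0464 to 0.805% of their own pericyte-like levels), and Cspg4 above it in each (4.31 to 24.4%). Des and Mylk were each above it in 4 of the 5 libraries. Kcnj8 (0.114 to 44.0%), Abcc9 (0.319 to 123%) and Mcam (0.425 to 1.50%) lay above it in some libraries and below it in others. The highest shares of Kcnj8 and Abcc9 were those of d0, where Abcc9 was not higher in pericyte-like cells.

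**Figure D1:**
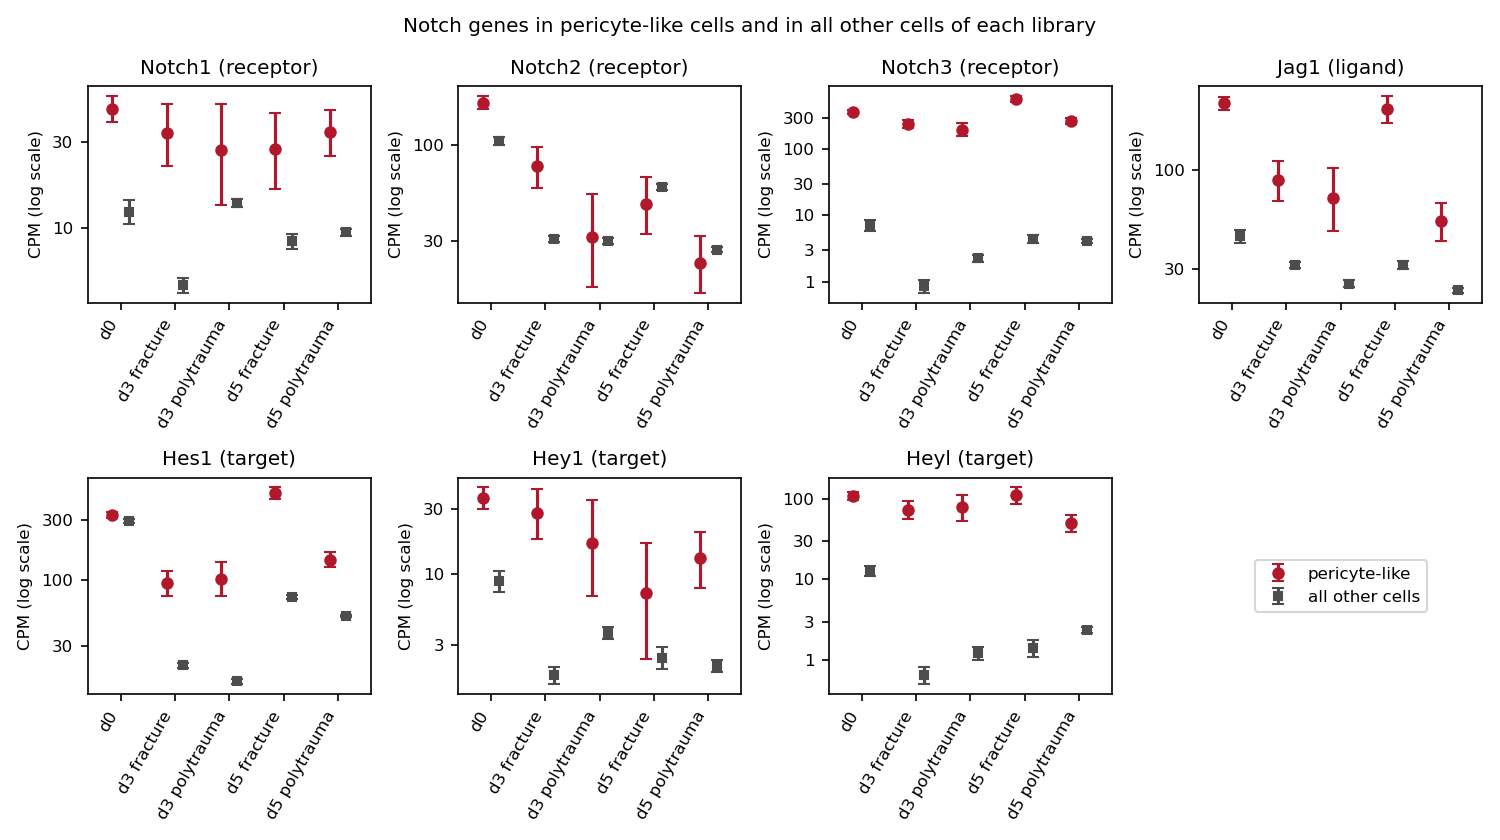
Levels of the 7 Notch genes (y axis, CPM on a log scale) in pericyte-like cells (red circles) and in all other cells (grey squares) of each of the 5 libraries (x axis); bars are exact Poisson 95% intervals. Notch3 and Heyl are separated by an order of magnitude or nearly so in every library, while Notch2 overlaps in 3 of them and Hes1 lies close in both classes at d0.

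Heyl, a HEY-family target gene, was likewise far higher in pericyte-like cells than in the others. Its level in pericyte-like cells was 107 CPM at d0, 72.8 at d3 fracture, 78.0 at d3 polytrauma, 110 at d5 fracture and 49.3 at d5 polytrauma, against 12.7, 0.656, 1.22, 1.41 and 2.39 CPM in the other cells. The fold ran from 8.45 at d0 to 111 at d3 fracture. Over the 63 clusters of at least 30 cells in the 5 libraries, the log2(CPM + 1) of Heyl correlated with that of Notch3 with a Pearson r of 0.89, the highest of the 21 member pairs, given as a description since clusters share libraries and depth. Outside the pathway the genes most like Notch3 over the same clusters were Kcnk3 (r = 0.91), Gucy1a1 (0.90), Hrc (0.90), Esam (0.90) and Gja4 (0.90). Those most like Heyl were Gucy1b1 (0.90), Synpo2 (0.89), Myh11 (0.89), Cystm1 (0.87) and Foxs1 (0.87). Several of these are smooth muscle or vessel wall genes: Myh11 encodes smooth muscle myosin, Gucy1a1 and Gucy1b1 the subunits of the nitric oxide receptor guanylate cyclase, and Synpo2 an actin-bundling protein.

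The remaining members differed by class to a smaller degree. Jag1, the ligand, was 2.31-fold (d5 polytrauma) to 6.64-fold (d5 fracture) higher in pericyte-like cells, at 223 against 44.6 CPM at d0 and 208 against 31.3 CPM at d5 fracture. Hey1, the second HEY-family target, was 3.01-fold to 15.9-fold higher, but rested on only 5 and 7 UMIs in the pericyte-like cells of d5 fracture and d3 polytrauma. Notch1 was 3.24-fold to 6.86-fold higher in 4 libraries and 1.94-fold at d3 polytrauma, where the interval of its log2 ratio reached from -0.05 to 1.80.
Notch2 showed no such pattern. It was 1.62-fold higher in pericyte-like cells at d0 and 2.48-fold at d3 fracture, and its log2 ratio was 0.07, -0.32 and -0.24 at d3 polytrauma, d5 fracture and d5 polytrauma, with intervals that included 0.
Hes1, the most widely used target gene of the pathway, was nearly level at d0, with 328 CPM in pericyte-like cells and 295 in the others. After injury it was 2.83-fold to 6.70-fold higher in pericyte-like cells.

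At least 2-fold higher in pericyte-like cells, with at least 20 UMIs in both classes together, were 5 of the 7 members at d0, against 13.7% of all genes tested. The counts were 7 at d3 fracture (17.8% of all genes), 5 at d3 polytrauma (17.2%), 6 at d5 fracture (16.3%) and 6 at d5 polytrauma (14.0%). Cells of 1 library are not replicates, so these counts are a description.

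Pericyte-like cells were not the same mixture in each library. At d0 their clusters held smooth muscle genes (Myh11 at 2644 CPM, Mylk at 2481). The pericyte channel genes Kcnj8 and Abcc9 were at 6.54 and 4.05 CPM there, against 2.88 and 4.99 CPM in the other cells. A cluster was therefore called Kcnj8-low where Myh11 was at least 10 times Kcnj8, a split chosen after the levels were seen. All 3 pericyte-like clusters of d0 were Kcnj8-low, and d3 and d5 fracture held 1 cluster of each kind. Each polytrauma library held 1 cluster, which was Kcnj8-high. The kind was set from the summed counts of a cluster and not cell by cell, so a cluster may mix both kinds of cell. In the Kcnj8-high clusters Myh11 was at 75.5 CPM at d3 fracture, 251 at d3 polytrauma, 628 at d5 fracture and 330 at d5 polytrauma. The pericyte-like cells of d5 polytrauma also held skeletal muscle transcripts, with Acta1 at 726 CPM against 3.05 in the other cells, and those of both polytrauma libraries the endothelial gene Pecam1 at 53.6 (d3) and 31.2 CPM (d5); their part in the values of the members was not tested. Under the deposited labels the 2 libraries with a Kcnj8-high cluster alone are d5 fracture and d5 polytrauma.

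Within a library the kinds differed in several members, while the intervals of Notch1 and Hey1 included 0 at both times. At d3 fracture Notch2 was at 137 CPM in the 69 Kcnj8-low cells and at 39.8 in the 50 Kcnj8-high cells, 3.44-fold higher (log2 ratio 1.78, interval 0.98 to 2.63). At d5 fracture it was at 85.5 against 21.9 CPM, 3.90-fold higher (1.96, 0.81 to 3.25). Jag1 was 2.11-fold and 1.50-fold higher in Kcnj8-low cells, and Hes1 2.13-fold and 6.05-fold higher. Heyl was 3.03-fold higher in Kcnj8-high cells at d5 fracture (150.9 against 49.8 CPM, log2 -1.60, -2.55 to -0.75), and at d3 fracture its interval included 0.
Hes1 reached 972 CPM (860 to 1094) in the 19 Kcnj8-low cells of d5 fracture, above every other cluster of the 5 libraries. Notch3 went opposite ways in the 2 libraries: it was 1.52-fold higher in Kcnj8-low cells at d3 fracture (log2 0.61, 0.19 to 1.03) and 1.61-fold higher in Kcnj8-high cells at d5 fracture (log2 -0.69, -1.01 to -0.37).

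Kcnj8-low cells alone could be compared between d3 fracture and d0. Notch3 was at 306 against 364 CPM (log2 ratio -0.25, interval -0.57 to 0.06), Notch2 at 137 against 170 (-0.32, -0.81 to 0.14) and Notch1 at 39.1 against 45.5 (-0.22, -1.20 to 0.63), so that a difference was not detectable at this depth. Heyl (81.4 against 107 CPM) and Hey1 (35.8 against 36.5 CPM) had intervals that included 0 as well. Jag1 was lower at d3, at 130 against 223 CPM (-0.78, -1.28 to -0.32), and so was Hes1, at 140 against 328 CPM (-1.23, -1.70 to -0.79). These d0 levels pool clusters of 366, 349 and 30 cells that differed among themselves. In this order Rgs5 was at 663, 19.6 and 39.3 CPM, Notch2 at 98.1, 236 and 167 and Hes1 at 431, 229 and 383. The Kcnj8-low cluster of d3 fracture held Rgs5 at 1433 CPM. The ratios therefore depend on the mix of clusters at d0, and each cluster was not compared on its own.

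Summed over all cells of a library, every member was highest at d0. Notch3 was at 72.7 CPM at d0, 2.80 at d3 fracture, 3.03 at d3 polytrauma, 12.03 at d5 fracture and 5.98 at d5 polytrauma. Notch2 was at 117, 31.2, 30.2, 59.3 and 27.0 CPM, and Notch1 at 18.4, 5.09, 13.9, 8.73 and 9.69 CPM in the same order.
The 3 receptors thus ordered the injured libraries differently: d5 fracture was highest for Notch2 and Notch3, and d3 polytrauma for Notch1. Intervals of d3 fracture and d3 polytrauma overlapped for Notch3 and Notch2, and those of d5 fracture and d5 polytrauma for Notch1. A 3′ library counts 1 tag per transcript and is not scaled by length, and levels are compared here within a gene.
Jag1 was at 77.5 CPM at d0, 31.8 at d3 fracture, 25.3 at d3 polytrauma, 33.7 at d5 fracture and 23.3 at d5 polytrauma. Hes1 was at 301, 21.4, 15.9, 78.7 and 51.9 CPM, Hey1 at 13.9, 2.00, 3.70, 2.47 and 2.17 CPM, and Heyl at 29.99, 1.24, 1.52, 2.85 and 2.72 CPM. For Hes1 no 2 intervals overlapped, whereas for Heyl those of the 2 d3 libraries did, and those of the 2 d5 libraries.

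**Figure D2:**
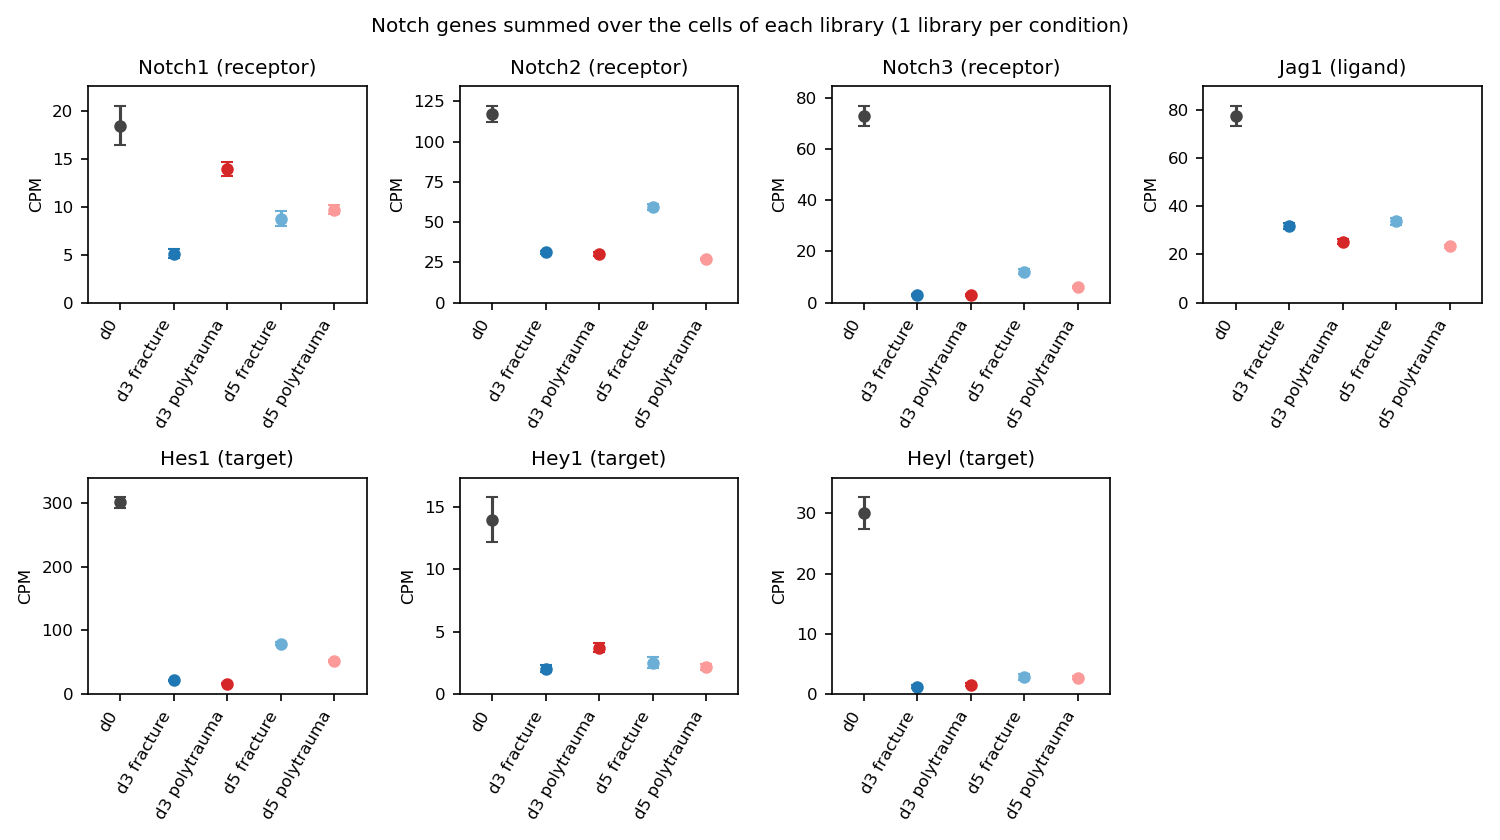
Levels of the 7 Notch genes summed over the retained cells of each library (y axis, CPM from 0; x axis, condition); bars are exact Poisson 95% intervals, and each point is 1 library pooled from 2 mice. In each panel d0 lies above all injured libraries, closest for Notch1 at d3 polytrauma (13.9 against 18.4 CPM).

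At d3 fracture all 7 members were at least 2-fold lower than at d0, against 46.4% of all genes that differed by that much in either direction. At d3 polytrauma 6 were (45.6% of all genes). Lower by that much were 4894 of 14610 genes at d3 fracture and 4807 of 14809 at d3 polytrauma. Outside the pericyte-like clusters Jag1 no longer counted in either comparison, at log2 ratios of -0.51 and -0.83. Notch3 and Heyl were 26.0-fold and 24.2-fold lower at d3 fracture, with log2 ratios of -4.70 (interval -4.89 to -4.51) and -4.60 (-4.89 to -4.31). The log2 ratio of the median gene was -0.46 in this comparison and -0.45 at d3 polytrauma.
The share of pericyte-like cells was 16.1% at d0 and 2.13% at d3 fracture. In pericyte-like cells alone the log2 ratio of d3 fracture to d0 was -0.60 for Notch3 and -0.55 for Heyl, and in the other cells -3.05 and -4.27. In those other cells every pericyte marker was also lower at d3 fracture than at d0. Myh11 was at 0.272 against 21.3 CPM, Rgs5 at 1.22 against 3.16, Mcam at 0.666 against 1.97 and Des at 9.02 against 11.5. The part of pericyte transcripts in the Notch3 and Heyl ratios of the other cells was not tested. The pericyte-like ratios mix Kcnj8-low with Kcnj8-high cells, of which d0 held only the former, and in Kcnj8-low cells alone the intervals of Notch3 (-0.25) and Heyl (-0.39) included 0, as given above.

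Hes1 was 14.1-fold lower at d3 fracture than at d0 (log2 ratio -3.81, -3.89 to -3.74) and 19.0-fold lower at d3 polytrauma (-4.25, -4.33 to -4.17). Outside the pericyte-like clusters the log2 ratios were nearly the same, -3.82 and -4.25. The clusters of d0 lay between 105 and 530 CPM of Hes1, each above every cluster outside the pericyte-like ones at d3 fracture (3.28 to 97.4 CPM) and d3 polytrauma (2.48 to 45.7 CPM). In thinned cells Hes1 was found in 33.2% at d0 (31.7 to 34.7%), 5.18% at d3 fracture and 3.84% at d3 polytrauma, and before thinning in 44.9, 20.5 and 16.7%.
The summed level of 8 immediate early genes, which answer to cell isolation as well as to injury, was 12362 CPM at d0, 3211 at d3 fracture, 1910 at d3 polytrauma, 12576 at d5 fracture and 6871 at d5 polytrauma. Like Hes1 it was lowest in the 2 d3 libraries, and its part in the Hes1 levels was not tested. With the deposited labels the d3 polytrauma library would be the one used here as d5 fracture, and its Hes1 ratio to d0 would be -1.94.

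Jag1 was 2.44-fold lower at d3 fracture than at d0 and 3.07-fold lower at d3 polytrauma. Outside the pericyte-like clusters its log2 ratios were -0.51 and -0.83, beside a median gene of -0.45 and -0.44 in those cells, whereas in pericyte-like cells they were -1.35 and -1.66. The pericyte-like ratios set Kcnj8-low clusters at d0 against both kinds at d3 fracture and a Kcnj8-high cluster at d3 polytrauma. In Kcnj8-low cells alone the Jag1 ratio at d3 fracture was -0.78, and d3 polytrauma had no such cluster. Notch2 was 3.75-fold and 3.87-fold lower, and outside the pericyte-like clusters its log2 ratios were -1.77 and -1.80. Hey1 was 6.96-fold lower at d3 fracture and 3.77-fold lower at d3 polytrauma. Notch1 was 3.61-fold lower at d3 fracture, but at d3 polytrauma its log2 ratio was -0.41, beside a median gene at -0.45, and under median-of-ratios scaling it was 0.13. Under the deposited labels the ratio of d3 polytrauma to d0 would be -2.60 for Notch3, -0.98 for Notch2 and -1.08 for Notch1.

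Between the 2 injuries at d3, Notch1 was the member that differed 2-fold. It was 2.73-fold higher at d3 polytrauma than at d3 fracture (13.9 against 5.09 CPM, log2 ratio 1.45, 1.30 to 1.60), against 8.59% of all genes that differed at least 2-fold. The difference lay outside the pericyte-like clusters, where Notch1 was at 13.8 against 4.86 CPM (log2 1.51), while in pericyte-like cells it was at 26.8 and 33.3 CPM (-0.31, -1.47 to 0.75). In FAP/MP-like cells, the fibro-adipogenic or mesenchymal progenitors named from Prrx1, Cxcl12, Pdgfra, Ly6a and Cd34, Notch1 was at 13.5 against 4.27 CPM, and in tenocyte-like cells at 11.8 against 7.92 CPM. Outside the pericyte-like clusters Notch3 was also higher at d3 polytrauma, at 2.26 against 0.857 CPM (log2 1.40, 1.03 to 1.77), and Hey1 at 3.65 against 1.79 CPM (1.03, 0.77 to 1.30). Under the deposited labels the same 2 libraries are d5 fracture and d3 fracture, and Notch1 at d3 polytrauma against d3 fracture would be at 0.78 on the log2 scale, below 2-fold, while Notch3, Hes1 and Heyl would be at 2.10, 1.88 and 1.20.

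From d3 to d5 Hes1 was higher in both injuries, by 3.68-fold after fracture (log2 1.88, 1.80 to 1.95) and 3.27-fold after polytrauma (1.71, 1.64 to 1.79). After fracture 3 members, Hes1, Notch3 and Heyl, were at least 2-fold different (45.8% of all genes), and after polytrauma 1, Hes1 (36.3%). Under median-of-ratios scaling Heyl was at 0.47 after fracture and no longer counted, and after polytrauma 3 members counted, Hes1 and, as lower, Notch1 (-1.01) and Hey1 (-1.26). The median gene was higher at d5 as well, by 0.73 on the log2 scale after fracture and 0.48 after polytrauma. Under median-of-ratios scaling the Hes1 ratios were 1.14 and 1.22.
With the deposited labels the d5 to d3 ratios of Hes1 reverse, to -0.43 after fracture and -0.60 after polytrauma. Without the cells with shared barcodes the fracture ratio of Hes1 was 2.53, and both ratios also span the change of barcode set. Notch3 was 4.29-fold higher at d5 than at d3 fracture (log2 2.10, 1.90 to 2.31), and 3.00 on the log2 scale without those cells. In polytrauma it was 1.97-fold higher (0.98, 0.80 to 1.16). These Notch3 ratios become, with the deposited labels, 0.11 after fracture and -1.01, a reversal, after polytrauma, and that of Heyl after fracture becomes 0.29.
Notch2 was 1.90-fold higher at d5 than at d3 after fracture (59.3 against 31.2 CPM) and 1.12-fold lower after polytrauma (27.0 against 30.2 CPM). Jag1 was at a log2 ratio of 0.08 after fracture and -0.12 after polytrauma, and at -0.65 and -0.60 under median-of-ratios scaling. Hey1 was at 2.47 against 2.00 CPM after fracture, with an interval that included 0 and a ratio of -0.43 under median-of-ratios scaling, and 1.71-fold lower after polytrauma (log2 -0.77, -0.97 to -0.57). The deposited labels turn these ratios over all cells after fracture and polytrauma into -0.05 and -1.13 for Notch2, -0.33 and -0.53 for Jag1, and 0.89 and -0.19 for Hey1. The classes differed after fracture. In pericyte-like cells, both kinds pooled, Jag1 was at 1.25 (0.83 to 1.68) and Hes1 at 2.39. Hey1 was at -1.97 (-3.73 to -0.55), from 23 UMIs at d3 and 5 at d5. In the other cells Jag1, Hes1 and Hey1 were at -0.002, 1.81 and 0.43. Under the deposited labels the pericyte-like ratios become -0.31, 0.13 and -0.73, with intervals that included 0.

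At d5, 2 members were at least 2-fold lower after polytrauma than after fracture, Notch2 by 2.20-fold and Notch3 by 2.01-fold (18.4% of all genes differed by as much). Under median-of-ratios scaling neither reached 2-fold, at log2 ratios of -0.93 and -0.81. For Notch2 this held outside the pericyte-like clusters (27.0 against 59.4 CPM, log2 -1.14, -1.20 to -1.07). For Notch3 it did not: outside them the levels were 4.12 and 4.40 CPM (-0.09, -0.31 to 0.12), and in pericyte-like cells 265 and 577 CPM (-1.12, -1.33 to -0.92). Without the cells with shared barcodes the ratio over all cells was -1.05 for Notch2 and -1.91 for Notch3. With the deposited labels that of Notch3 reverses, to 0.98, and that of Notch2 becomes -0.16. In the cells of Kcnj8-high clusters alone, Notch3 was 2.57-fold, Jag1 3.24-fold and Heyl 3.06-fold lower at d5 polytrauma than at d5 fracture. These cells numbered 19 at d5 fracture, and Hes1 was at 145 and 161 CPM. The clusters need not hold the same mixture of cells. The pericyte marker Rgs5 was at 2208 CPM at d5 polytrauma against 10730.5 at d5 fracture. Kcnj8 was at 145 against 467 CPM, Abcc9 at 99.9 against 321 and Mylk at 420 against 1010. Mcam was at 167 against 355 CPM, Myh11 at 330 against 628 and Cspg4 at 103 against 158. Des went the other way, at 522 against 472 CPM. The part of this mixture in the ratios of the members was not tested. The log2 ratios of these members become, with the deposited labels, 0.42 for Notch3, a reversal, -0.40 for Jag1, with an interval that included 0, and -0.66 for Heyl.

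**Figure D3:**
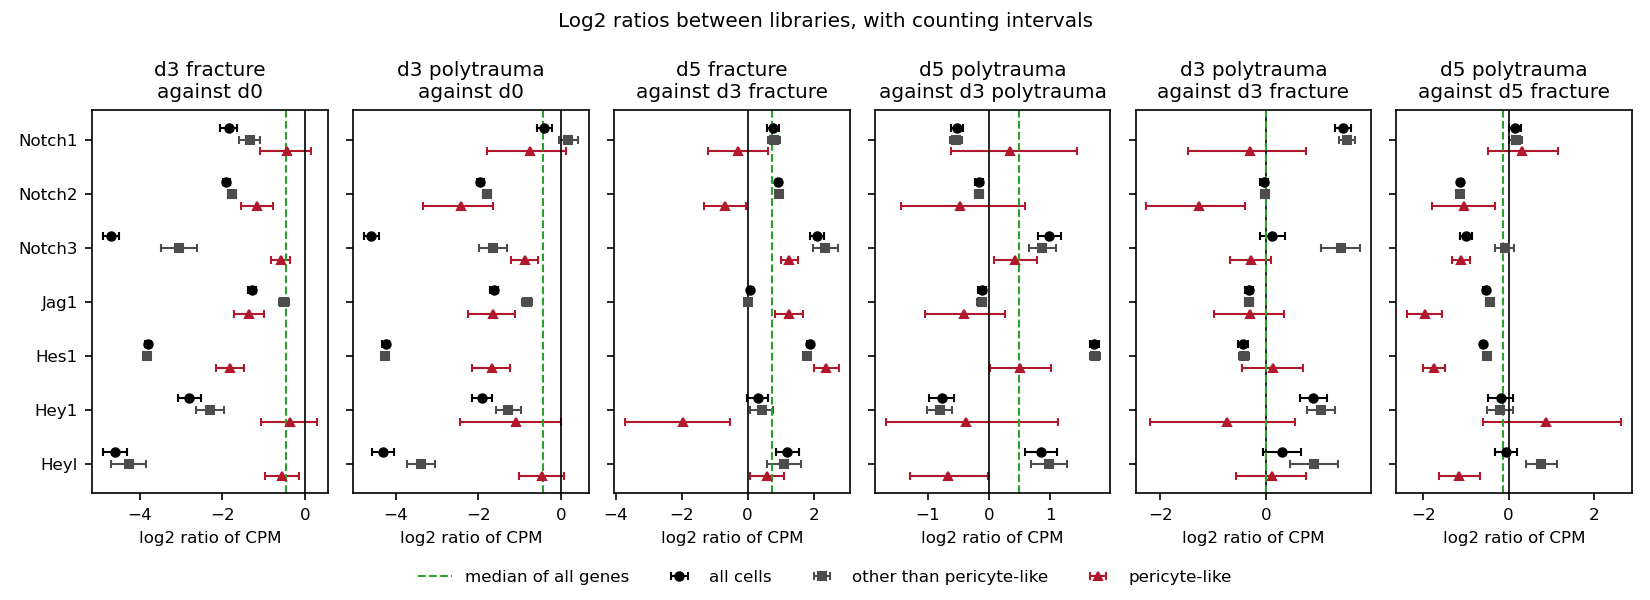
Log2 ratios of CPM (x axis) of the 7 Notch genes in the 6 comparisons between libraries, over all cells (black circles), cells other than pericyte-like (grey squares) and pericyte-like cells (red triangles), with exact binomial 95% intervals; the green dashed line is the median of all genes over all cells. In the first 2 panels Notch3 and Heyl lie below -4 over all cells and within 1 of 0 in pericyte-like cells, while Hes1 keeps its ratio outside the pericyte-like cells.

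Outside the pericyte-like clusters, tenocyte-like cells (named from Scx, Tnmd, Kera and Fmod) held more of the HEY-family targets than other cells of the same injured library. Unnamed clusters held 31.2% of the cells at d0, 66.9% at d3 fracture, 64.6% at d3 polytrauma, 48.5% at d5 fracture and 63.0% at d5 polytrauma. The other cells compared here and below are therefore in large part unnamed. Hey1 was at 10.3 CPM in tenocyte-like cells of d3 fracture against 1.37 in the other cells without the pericyte-like ones (log2 2.91, 2.40 to 3.40). It was at 8.65 against 3.20 CPM at d3 polytrauma and at 9.94 against 1.63 CPM at d5 polytrauma. At d0 the levels were 12.7 and 8.29 CPM, with an interval that included 0.
Heyl showed the same order, at 4.18 against 0.486 CPM at d3 fracture, 4.09 against 0.962 at d3 polytrauma and 9.85 against 1.96 at d5 polytrauma, but not at d0 (11.6 against 12.8 CPM). Within tenocyte-like cells neither gene stood above its d0 level after injury, and in the other cells both were lower after injury than at d0. Notch3 was also higher in tenocyte-like cells of polytrauma, at 5.05 against 2.01 CPM at d3 and 9.31 against 3.82 CPM at d5. At d0 and d3 fracture the interval of its ratio included 0. No cluster of d5 fracture passed as tenocyte-like.

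Chondrocyte-like cells, named from Col2a1, Acan, Fgfr3, Col9a1 and Matn1, held less of the ligand and of Hes1 than other cells at d5. Jag1 was at 6.20 CPM in the 182 chondrocyte-like cells of d5 fracture against 36.5 in the other cells without the pericyte-like ones (5.89-fold lower, log2 -2.56, -2.98 to -2.17), and at 5.07 against 23.3 CPM in the 211 of d5 polytrauma (log2 -2.20, -3.15 to -1.39). Hes1 was 2.51-fold and 2.60-fold lower there. Notch3, Hey1 and Heyl were also at least 2-fold lower at d5 fracture (log2 -1.42, -1.38 and -3.86), from 16, 9 and 1 UMIs in chondrocyte-like cells. At d5 polytrauma Notch3 and Hey1 had 1 UMI each in these cells and Heyl had 0. Notch1 was lower in both libraries (log2 -0.90 and -0.92), with intervals that excluded 0. The share of all genes lower in chondrocyte-like cells was not counted. Notch2 was 1.48-fold lower at d5 fracture (42.6 against 62.9 CPM) and level at d5 polytrauma (27.0 CPM in both). In the 62 chondrocyte-like cells of d3 fracture, which were led by Acan, Jag1 was at 26.8 against 31.5 CPM, Hes1 at 16.1 against 20.9 CPM and Hey1, from 5 UMIs, at 3.35 against 1.76 CPM, with intervals that included 0.

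FAP/MP-like cells held more Hes1 after fracture than the other cells without the pericyte-like ones, at 46.8 against 15.7 CPM at d3 (log2 1.58, 1.45 to 1.71) and 129 against 44.3 CPM at d5 (1.54, 1.45 to 1.64). After polytrauma the levels were closer, at 18.4 against 14.7 CPM at d3 and 57.7 against 49.5 CPM at d5. The difference between the injuries was not tested, and under the deposited labels the d5 fracture library is d3 polytrauma. At d0 the FAP/MP-like level was 312 against 280 CPM. Higher Hes1 was not particular to this class. Tenocyte-like cells held 31.7 against 20.3 CPM at d3 fracture (log2 0.64, 0.39 to 0.89). At d5 polytrauma they held 86.4 against 49.2 CPM (0.81, 0.71 to 0.91), above the FAP/MP-like level. For tenocyte-like cells of d0 and d3 polytrauma the interval included 0.

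**Figure D4:**
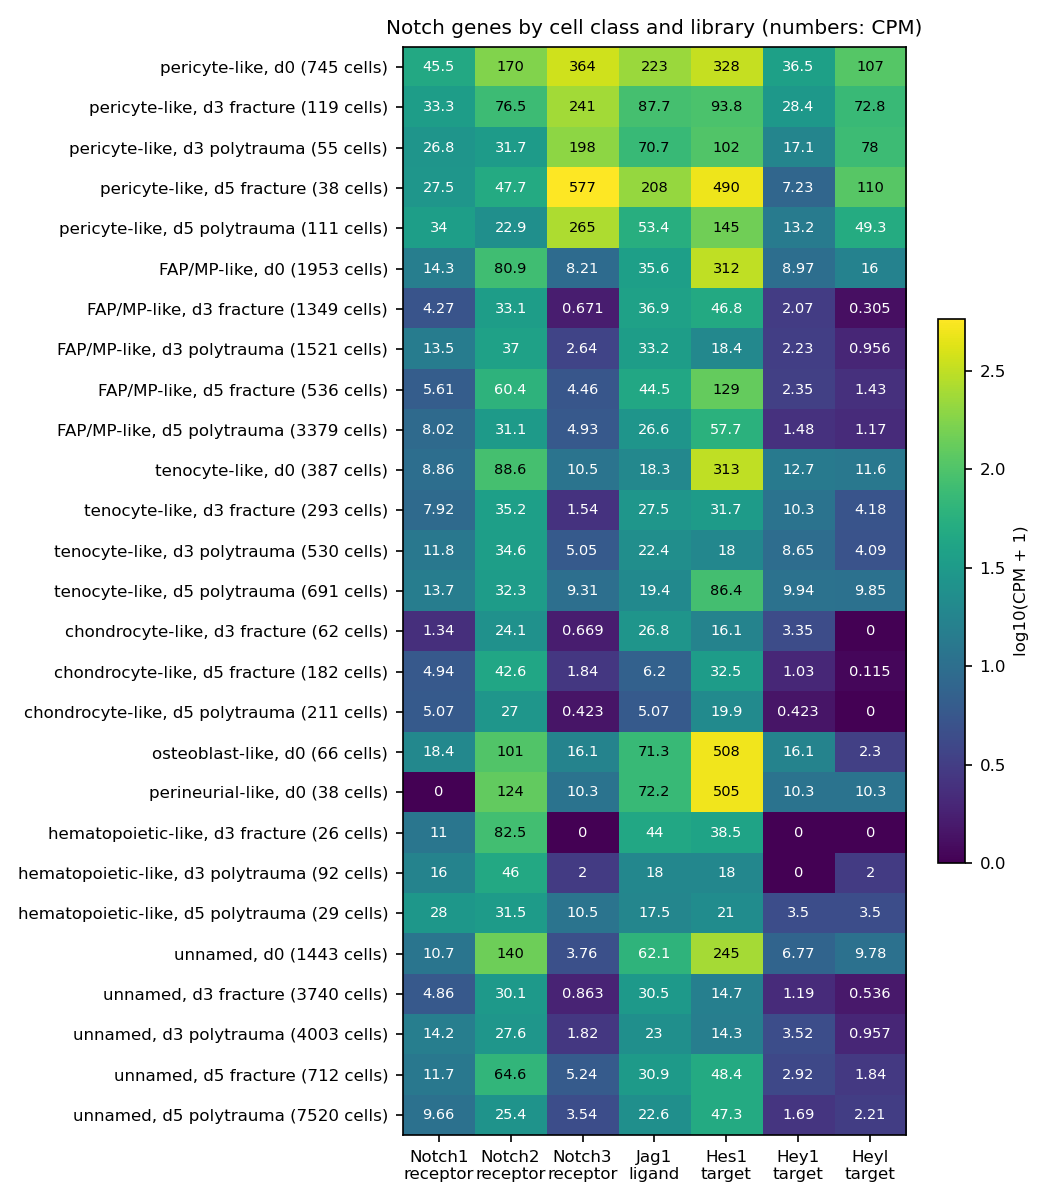
CPM of the 7 Notch genes (columns) in each cell class of each library (rows, with the number of cells); the colour is log10(CPM + 1) and the printed number is the CPM. The 5 pericyte-like rows at the top hold the highest Notch3 and Heyl, the tenocyte-like rows of the injured libraries hold Hey1 at 8.65 to 10.3 CPM, and the chondrocyte-like rows of d5 hold Jag1 at 5.07 to 6.20 CPM.

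Members were then counted together in single cells thinned to 2000 UMIs. Over all cells of d0, 74 cells held both Notch3 and Heyl, 3.35 times the 22.1 that the product of the 2 shares gives, and 128 held Notch3 and Jag1, 2.74 times the 46.8 of the product. Within pericyte-like cells the same pairs came to 72 cells (1.16 times) and 123 cells (1.10 times), closer to the product than over all cells. Notch2 and Hes1 were found together in 234 cells of d0, 1.02 times the product, and Notch1 and Hes1 in 55, 1.14 times. At d5 polytrauma, the library with the most cells, Notch1 and Hes1 came to 35 cells (1.58 times the 22.2 of the product) and Jag1 and Hes1 to 9 of 107 pericyte-like cells (2.36 times the 3.81). The last ratio rests on these 9 cells, in the cluster that also held skeletal muscle and endothelial transcripts. Only some of the pairs fixed beforehand are given here, without intervals. In a check with all UMIs of the same cells, 1 such ratio moved and 5 did not. Not every ratio given here was part of that check.

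The other 42 genes of the pathway are given by their counts. At d3 fracture 14 were at least 2-fold lower than at d0 and 2 higher, of 35 with enough UMIs, beside 46.4% of all genes that differed in either direction, and at d3 polytrauma 12 and 3 of 35, beside 45.6%. These shares lie near those of all genes. From d3 to d5, 19 of 36 were higher after fracture, beside 6098 of all 15115 genes, and 13 of 37 after polytrauma, beside 4640 of 16093, and none of the list was lower. The median log2 ratios of the list were -0.86, -0.86, 1.06 and 0.77 in these 4 comparisons, against -0.46, -0.45, 0.73 and 0.48 over all genes. The counts from d3 to d5 become, with the deposited labels, 1 higher and 0 lower after fracture, and 2 higher and 5 lower after polytrauma.
Nrarp, a target gene whose product dampens Notch signalling, was at 41.1 CPM at d0, 0.430 at d3 fracture, 0.319 at d3 polytrauma, 1.95 at d5 fracture and 0.559 at d5 polytrauma. Pericyte-like cells held 96.5% of its UMIs at d0 and 69.7 to 90.1% after injury, at 216, 45.7, 56.1, 132 and 59.0 CPM against 0.0605 to 1.76 CPM in the other cells. At d3 fracture it was at 114 CPM in Kcnj8-low and 3.98 CPM in Kcnj8-high cells. Hey2, the third HEY-family gene, was at 21.8 CPM in pericyte-like cells of d0 and 37.6 at d5 fracture, against 0.984 and 1.07 in the others.
The DNA-binding partner Rbpj was at 58.0 CPM at d0, 26.2 and 30.9 at d3, and 56.4 and 53.1 at d5. With the deposited labels its levels are 26.2 and 56.4 CPM at d3 and 30.9 and 53.1 at d5. Dlk2, a non-canonical ligand, was at 36.6 and 43.1 CPM in chondrocyte-like cells of d5 fracture and d5 polytrauma and under 1 CPM in their other cells. Dlk1 was at least 5.01-fold higher in pericyte-like cells of the 4 injured libraries (37.0 to 126 CPM), while at d0 it was at 0.623 CPM in pericyte-like cells and 21.4 in the others. In both fracture libraries all pericyte-like Dlk1 UMIs (30 at d3 and 87 at d5) lay in the Kcnj8-high cluster. The pericyte-like clusters of d0 were all Kcnj8-low, so this contrast cannot be told apart from one between the kinds. The other canonical ligands, named outside the rule after their values were seen, were low: Dll3, Dll4 and Jag2 lay at or under 0.115 CPM in all 5 libraries and Dll1 between 0.223 and 1.26 CPM, so that Jag1 was the canonical ligand with the most UMIs in these cells.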

How the data were processed

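Single-cell RNA sequencing of GFP+ cells sorted from skeletal muscle was measured in 5 libraries, 1 per condition. The authors deposited UMI counts per gene and cell barcode, made with Cell Ranger on mm10 (the matrix headers name software version 3.1.0), with no normalization, and the submitters' processing notes also list Seurat 3.1.2. No column of other samples was present.

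Cells were filtered on genes (350 to 8000), mitochondrial share (under 20%) and UMIs (at least 1000). Counts were summed over a library or class and scaled to CPM. Each library was clustered with scanpy 1.11.5 and leidenalg 0.10.2 (2000 variable genes without those of the Notch pathway, 20 principal components, 15 neighbours, resolution 0.5). A cluster was named where at least 3 markers of a list were found in at least 10% of its cells at 2-fold or more the level of other cells (for FAP/MP, above it), with the highest share of the list, and stayed unnamed otherwise. Scrublet's own threshold marked almost no cell, so the highest scores at a rate of 0.8% per 1000 cells were left out as an alternative, and doublets were otherwise kept.

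Intervals are 95%, exact Poisson for levels and exact binomial for ratios and shares. A gene was counted as different at 2-fold or more with at least 20 UMIs in both groups together. Computations used python 3.11.15, numpy 2.4.6, scipy 1.17.1 and pandas 2.3.3, and the ratio code was tested on simulated data. Genes named for likeness were the 5 with the highest Pearson r on log2(CPM + 1) over clusters of at least 30 cells, among genes with at least 200 UMIs; the 7 members and 42 pathway genes come from a list, of which those at 2-fold or more between libraries with at least 50 UMIs, or at 5-fold or more in a class, could be named, beside 4 ligands named after their values were seen. The members and lists were chosen with earlier results of these data known, and the Kcnj8 split after levels were seen. Alternatives were median-of-ratios scaling, the deposited labels, no minimum of UMIs, cells without shared barcodes, without possible doublets, the mean of CPM per cell, thinning to 2000 UMIs and cluster resolution 1.0.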

Additional observations from a re-analysis of the deposited data

Results flagged for a closer look

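On the CPM scale Notch1 and Notch2 differed from d3 to d5 in opposite directions after the 2 injuries. The log2 ratio of d5 to d3 was 0.78 for Notch1 after fracture and -0.52 after polytrauma, and 0.93 and -0.16 for Notch2, with counting intervals that excluded 0 in all 4 cases. The difference between the injuries was not tested, since each condition has 1 library. The median gene stood at 0.73 after fracture and 0.48 after polytrauma. Both fracture ratios thus lay near that of the median gene, and both polytrauma ratios lay below it. Under the deposited labels the Notch1 ratios are 1.45 after fracture and 0.15 after polytrauma, and those of Notch2 are -0.05 and -1.13.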

How the results depend on the processing

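No paired analysis was possible because each condition has 1 library. The 42 log2 ratios between libraries moved by no more than their counting interval without a minimum of UMIs. Beyond that interval, 33 moved under median-of-ratios scaling, 28 with the mean of CPM per cell and 10 without shared barcodes. In cells outside the pericyte-like clusters 19 moved. With thinning to 2000 UMIs 12 moved and 21 did not. Under the deposited labels 7 of the 42 stayed within their counting interval, and all others moved or reversed. With the deposited labels Hes1 reversed from d3 to d5, to -0.43 after fracture and -0.60 after polytrauma, and Notch3 reversed between the injuries at d5, to 0.98, and from d3 to d5 polytrauma, to -1.01, while Notch2 between the injuries at d5 lost its 2-fold difference (-0.16); the count of members at least 2-fold different became 1 for d5 against d3 fracture, 2 for d5 against d3 polytrauma, 3 between the injuries at d3 and 1 at d5. With median-of-ratios scaling Heyl after fracture lost its 2-fold difference (0.47) and the count became 3 for d5 against d3 polytrauma and 0 between the injuries at d5, and with the mean of CPM per cell 2 for d5 against d3 polytrauma. Alternatives chosen after seeing the data were leaving out shared barcodes unless 10 times deeper, and using only cells outside the pericyte-like clusters. The former gave 2 for d5 against d3 polytrauma and 1 between the injuries at d5. The latter gave 3 between the injuries at d3 and 1 at d5. In the latter Jag1 also lost its 2-fold difference from d0 at d3 fracture (-0.51) and d3 polytrauma (-0.83). The labels and the scaling change these counts by their construction; the cause of the other shifts was not tested. The 38 pericyte-like cells of d5 fracture limit every value in that class.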
